A study of Homo sapiens with 8 samples.

Results

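HMGA2 and 7 other genes known as targets of the let-7 microRNA (miRNA) family (HMGA1, LIN28B, IGF2BP1, IGF2BP2, IGF2BP3, ARID3B and CCND2) were read on 8 two-colour Agilent expression arrays. The members were chosen by name, after HMGA2 had stood out in the log2 ratios of these same arrays, so the HMGA2 ratios are given as a description and support nothing on their own. The 8 genes had 11 probes, of 43317 genes and 58201 probes on the array. Every array carried RNA of mock cells without transfection in Cy3 and RNA of treated cells of the same line in Cy5, and no dyes were swapped. PC3 prostate cancer cells received bisamide, a small-molecule inhibitor of pirin, for 24 h on 1 array and for 48 h on another, and miR-125b-1-3p on one more. C4-2 prostate cancer cells received miR-199-3p, 786-O renal cancer cells received either arm of miR-532 (5p or 3p), and T24 bladder cancer cells either arm of miR-140. The miRNAs were delivered by lipid transfection, and the mock was not a control miRNA, so an effect of a miRNA cannot be told apart from that of transfection with any small RNA. Each treatment had 1 array, hence no p-value was computed for any difference, and whether mocks of 1 line came from separate cultures is not given in the sources used here.

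The let-7 miRNAs guide Argonaute to matching sites in mRNAs, mostly in the 3′ untranslated region, and lower the stability and translation of the targets. HMGA2, an architectural chromatin protein of embryonic and tumor cells, is the best known of these targets in human cells because its long 3′ end holds several let-7 sites, and transcripts that lose this end escape let-7. LIN28B blocks let-7 maturation and is itself a let-7 target, and the IGF2BP proteins bind and stabilise mRNAs, so these genes often appear together in fetal tissue and cancer.

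A miRNA finds its targets mainly through its seed (bases 2 to 8, in capitals below). The sequences are those of RefSeq (GRCh38.p14), shown because a shared seed would give shared targets. The 9 mature let-7 family miRNAs in the table shared 1 seed, of which these 4 are shown.
hsa-let-7a-5p: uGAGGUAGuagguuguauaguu
hsa-let-7d-5p: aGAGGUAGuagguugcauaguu
hsa-let-7i-5p: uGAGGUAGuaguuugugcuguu
hsa-miR-98-5p: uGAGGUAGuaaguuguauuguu

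The transfected miRNAs had other seeds, all different from each other and from that of let-7. The label miR-199-3p does not separate miR-199a-3p from miR-199b-3p, whose mature sequences were identical.
hsa-miR-199a-3p: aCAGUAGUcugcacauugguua
hsa-miR-125b-1-3p: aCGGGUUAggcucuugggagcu
hsa-miR-532-5p: cAUGCCUUgaguguaggaccgu
hsa-miR-532-3p: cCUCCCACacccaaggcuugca
hsa-miR-140-5p: cAGUGGUUuuacccuaugguag
hsa-miR-140-3p: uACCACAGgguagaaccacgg

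Both arms of miR-532 come from 1 hairpin on the plus strand (miR-532-5p at chrX:50003167-50003188 and miR-532-3p at chrX:50003204-50003225), as do those of miR-140 (miR-140-5p at chr16:69933103-69933124 and miR-140-3p at chr16:69933142-69933162). The 11 member probes were searched on both strands for the 7-letter match to each seed (CTACCTC for let-7) and for the match to bases 2 to 7 followed by A (TACCTCA for let-7), which overlap by 6 letters. The HMGA1 probe held the former and the CCND2 probe the latter, shown here in 30 bases of each probe with the match in capitals.
HMGA1 probe: ctgttcacaaaCTACCTCtggacagttgtg
CCND2 probe: catcacccttatatcatgTACCTCAgatct

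Of all 58201 probes, 0.314% held CTACCTC and 0.330% held TACCTCA. No seed match of a transfected miRNA was found in a member probe, which says only that these letters are not in the windows that the probes cover.

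A gene counted as measured on an array when both channels of its probe were well above background. The log2 ratio of treated over mock RNA was taken after dye normalization within the array. Measured genes numbered 15442 to 19240 on an array, and probes printed in 10 spots had a median SD of 0.04 to 0.05 on the log2 scale, which covers spot noise and not the spread between cultures. Raw signals are given as read, before dye normalization, so their quotient is not the ratio. Of the members, 6 were measured on at least 1 array. LIN28B and CCND2 were not well above background in either channel, except in Cy5 alone on the miR-125b-1-3p array (LIN28B, at least 1.04-fold higher in treated RNA) and on the miR-140-3p array (CCND2, at least 1.04-fold higher).

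HMGA2 had the widest range of ratios among the members. On the probe that stands for the gene, treated RNA was higher in 786-O for both arms of miR-532 and in T24 for miR-140-3p, and lower in T24 for miR-140-5p. The raw signal after miR-532-5p was 129 in Cy3 and 575 in Cy5, a log2 ratio of 2.08, or 4.23-fold. After miR-532-3p it was 129 and 433, a log2 ratio of 1.21, or 2.31-fold. The 786-O arrays thus had the same mock signal and different treated signals. After miR-140-3p the raw signal was 787 in Cy3 and 4253 in Cy5, a log2 ratio of 1.49, or 2.80-fold. After miR-140-5p it was 827 and 662, a log2 ratio of −1.01. The arms of miR-140 therefore stood on opposite sides of 0 in the same line, 2.50 apart on the log2 scale, and this difference has no replicate.

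In PC3 the HMGA2 ratios were smaller. The log2 ratio was 0.33 after 24 h of bisamide, 0.37 after 48 h and 0.51 after miR-125b-1-3p. In C4-2 neither channel was well above background on this probe (raw signals of 21.4 and 14.4), so no ratio is given for miR-199-3p on it. On this probe the bisamide arrays, which carried no transfected miRNA, lay just below the PC3 array with a miRNA.

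The probes of HMGA2 did not give the same picture. The probe described so far lies at chr12:66359789-66359848 (GRCh37) and is annotated to the full-length transcript with the long 3′ end. A second, at chr12:66309240-66309299, is annotated to shorter transcripts with another last exon, 50.5 kb upstream. The remaining probe, at chr12:66219101-66219160, lies near the 5′ end of the gene and is also annotated to shorter forms.

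After miR-532-5p the short-end probe had a log2 ratio of 0.44 and the 5′ probe 0.25, against 2.08 on the long-end probe. After miR-532-3p they had 0.34 and 0.38, against 1.21. After miR-140-3p they had 0.30 and 0.42, against 1.49. On these 3 arrays all HMGA2 probes were above 0, and the long-end probe exceeded the mean of the other probes by 1.73, 0.85 and 1.13. After miR-140-5p the short-end probe had 0.03 and the 5′ probe −0.08, so the low value of −1.01 was on the long-end probe alone. In C4-2 the 5′ probe alone was well above background in both channels, with −0.07 after miR-199-3p. In PC3 the long-end probe was also the highest of the 3, at 0.51 against 0.08 and 0.04 after miR-125b-1-3p. With bisamide the short-end and 5′ probes had 0.16 and 0.26 at 24 h, and 0.07 and 0.14 at 48 h. On the 5′ probe both bisamide arrays were thus above the miR-125b-1-3p array. On the scanner software's own ratio, which damps dim probes less, the short-end and 5′ probes had 0.92 and 0.63 after miR-532-5p, against 2.60. They had 0.70 and 0.97 after miR-532-3p, against 1.55, and 0.30 and 0.62 after miR-140-3p, against 1.56.

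**Figure D1:**
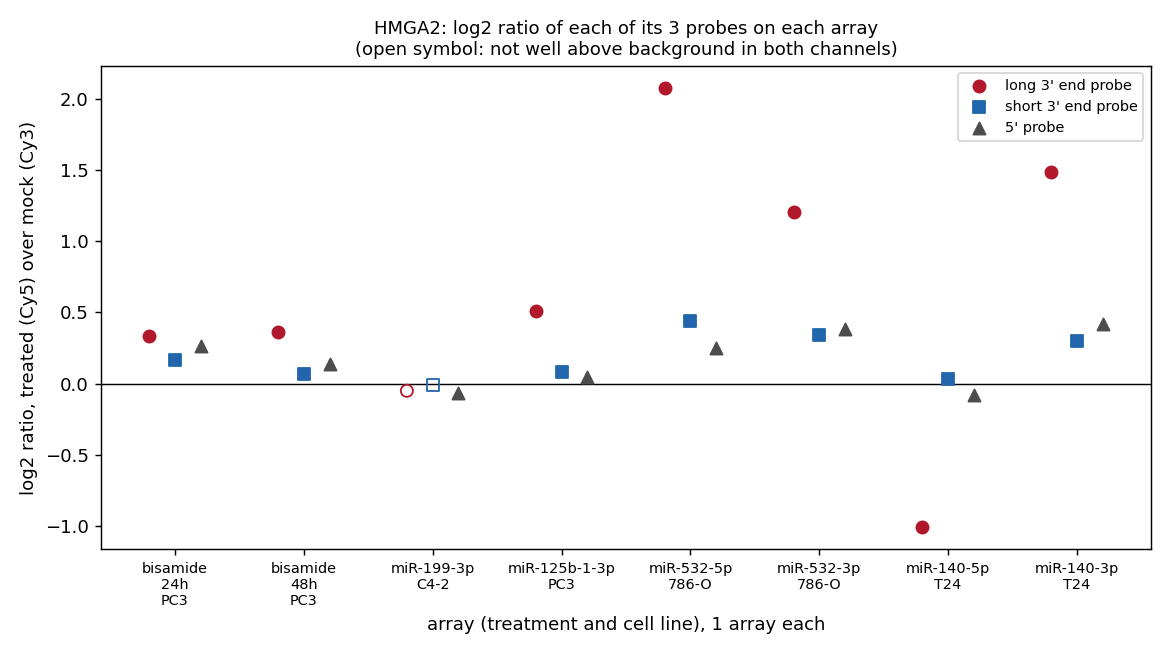
Log2 ratio of treated (Cy5) over mock (Cy3) RNA on each array for the 3 HMGA2 probes, 1 point per probe and array, open where a channel was not well above background. The long-end probe spans −1.01 to 2.08, while the other probes stay between −0.08 and 0.44. On the scanner software's own ratio, not plotted, the short-end probe reached 0.92 after miR-532-5p and the 5′ probe 0.97 after miR-532-3p.

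The rank of this spread among genes with several measured probes varied between arrays. HMGA2 was chosen on these same ratios, and a gene with more probes can span more, so nothing is read from its rank. After miR-532-5p the HMGA2 probes spanned 1.83, and 1 of 3211 genes, HMGA2 itself, spanned as much. The span was 1.18 after miR-140-3p, which 3 of 4010 genes reached, HMGA2 included, and 1.04 after miR-140-5p, which 13 of 4046 genes reached. After miR-532-3p it was 0.87, reached by 43 of 3246 genes.

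In PC3 the HMGA2 spread was more common. Of genes with several measured probes, 3.10% spanned as much after miR-125b-1-3p, 8.52% at 48 h of bisamide and 29.5% at 24 h. The scanner software's own ratio does not damp dim probes as the offset used here does. On it the shares were 0.498% after miR-532-5p, 0.773% after miR-140-3p, 2.84% after miR-140-5p and 8.81% after miR-532-3p, and 13.3%, 30.6% and 50.1% on the PC3 arrays in the order above. Which transcript end each culture used was not tested.

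HMGA1, the paralog of HMGA2 and also a chromatin protein, stayed near the mock level. Its log2 ratios were 0.03 and 0.07 with bisamide, 0.21 after miR-199-3p, 0.02 after miR-125b-1-3p, 0.11 after miR-532-5p and −0.27 after miR-532-3p. In T24 they were 0.23 after miR-140-5p and 0.31 after miR-140-3p. No HMGA1 value passed 0.5 on either side, the size used here for counting.

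Among the IGF2BP genes, which encode RNA-binding proteins of fetal tissue, each passed 0.5 on 1 array. IGF2BP1 exceeded background clearly in T24, where its log2 ratio was −0.11 after miR-140-5p and 0.52 after miR-140-3p, and dimly so on the bisamide arrays, with −0.07 and −0.04. The 10 spots of the IGF2BP1 probe had an SD of 0.05 on each T24 array, which covers spot noise alone and says nothing of the spread between cultures. IGF2BP2 had 0.54 after miR-532-5p, 0.38 after miR-532-3p, 0.25 and 0.37 with bisamide at 24 and 48 h, and values between −0.11 and 0.17 elsewhere. Its second, dimmer probe had 0.32 after miR-532-5p and 0.05 after miR-532-3p. IGF2BP3 had 0.52 after miR-532-5p, 0.41 after miR-125b-1-3p, 0.29 after miR-199-3p and 0.26 after miR-532-3p, and with bisamide it had −0.13 and −0.19. After miR-532-5p, the long-end probe of HMGA2 and the brightest probes of IGF2BP2 and IGF2BP3 were thus all above 0.5.

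ARID3B, a DNA-binding protein that cooperates with MYCN in tumors, was above 0 on all 8 arrays. Its raw signal after miR-532-3p was 105 in Cy3 and 298 in Cy5, a log2 ratio of 0.97, or 1.96-fold. After miR-532-5p in the same line the signal was 110 and 104, a log2 ratio of 0.10. The arms of miR-532 thus differed for ARID3B and for the long-end probe of HMGA2 in opposite order. Of the other HMGA2 probes, the short-end probe had 0.44 after miR-532-5p and 0.34 after miR-532-3p. The 5′ probe had 0.25 and 0.38, the order of ARID3B. ARID3B had 0.54 after miR-125b-1-3p, 0.50 after miR-140-3p and 0.32 after miR-140-5p, and 0.10 to 0.20 on the remaining arrays.

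Counted per array, members above 0.5 numbered 3 of 5 measured after miR-532-5p (3.61% of all 15669 measured genes were), 2 of 5 after miR-532-3p (1.71% of all), 2 of 5 after miR-125b-1-3p (1.77%) and 3 of 6 after miR-140-3p (0.992%). No member passed 0.5 with bisamide at 24 h (1.05% of all genes), at 48 h (0.91%), after miR-199-3p (1.75%) or after miR-140-5p (1.74%). Below −0.5 the only member was HMGA2, by its long-end probe alone, after miR-140-5p, where 2.89% of all genes lay. No other array had a member below −0.5, against 0.411% and 0.883% of all genes with bisamide, 2.74% after miR-199-3p, 0.883% after miR-125b-1-3p, 3.67% after miR-532-5p, 3.83% after miR-532-3p and 1.1% after miR-140-3p. Since the members were chosen with these ratios known, nothing is read from the shares. The members did not move alike: HMGA2, by its long-end probe, and ARID3B were above 0.5 together on 3 arrays, and HMGA1 on none.

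**Figure D2:**
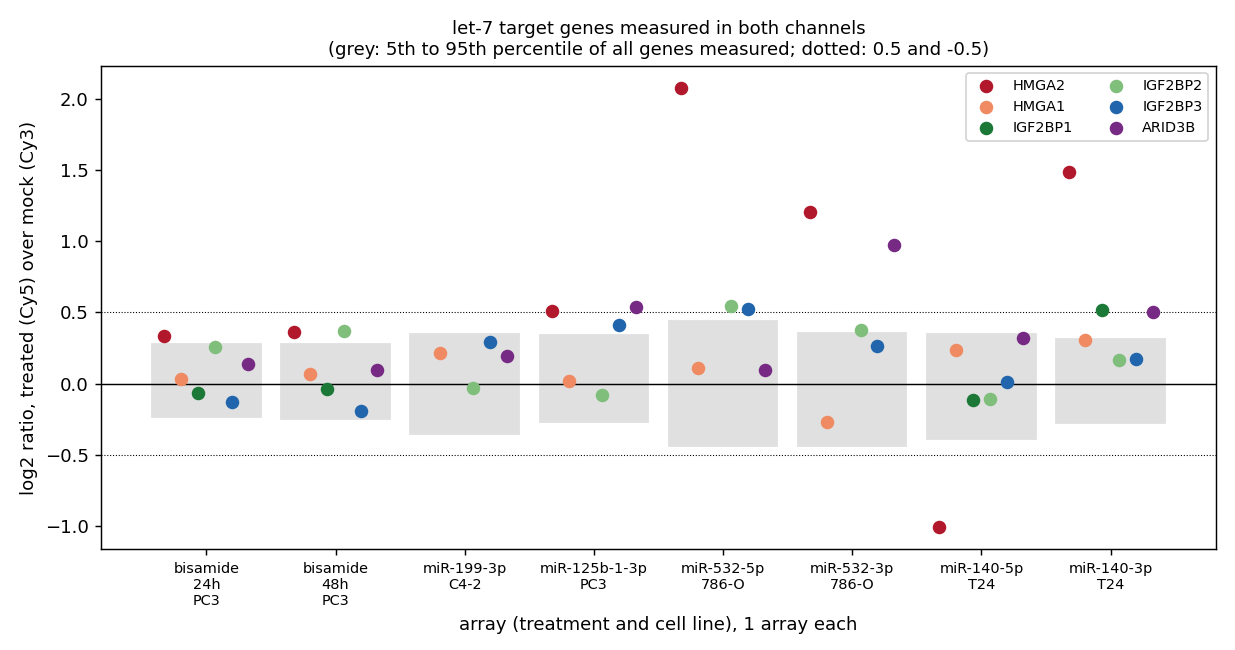
Log2 ratio of treated over mock RNA for the 6 members measured in both channels, by array, with the 5th to 95th percentile of all measured genes in grey and dotted lines at 0.5 and −0.5. HMGA2 is shown by its long-end probe alone, which lies far outside the grey range on the 786-O and T24 arrays. The short-end and 5′ probes, not plotted here, had −0.08 to 0.44 on those arrays. Both lay within the range after miR-140-5p. The largest excess over its upper end was on the 5′ probe after miR-140-3p, at 0.42 against 0.31. HMGA1 stays within the grey range on every array.

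A wider list of 50 let-7 targets was read next, with 38 to 46 genes measured on an array. It was written from general knowledge, but with earlier results of these data known. The median log2 ratio of the list was 0.20 after miR-532-3p, 0.16 after miR-199-3p, 0.10 after miR-125b-1-3p and 0.08 after miR-140-3p. It was 0.03 and −0.04 with bisamide, −0.01 after miR-532-5p and −0.07 after miR-140-5p, while the median of all measured genes was within 0.02 of 0 on every array. The array with the highest HMGA2 ratio, miR-532-5p, therefore had a list median near 0, with 18 of 42 genes above 0 (42.9%, against 50.1% of all genes). The share of list genes above 0 was 71.1% after miR-199-3p (27 of 38, against 52.7% of all genes), 65.9% after miR-125b-1-3p (against 54.4%), 64.3% after miR-532-3p (27 of 42, against 49.98%) and 62.2% after miR-140-3p (against 54.5%). It was 56.8% and 37.2% with bisamide at 24 and 48 h (against 54.2% on both arrays) and 39.1% after miR-140-5p (against 52.4%).

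DICER1, the nuclease that cuts miRNA precursors and a let-7 target, was the gene of the wider list above 0.5 on the most arrays. Its log2 ratio was 0.50 after miR-125b-1-3p, 0.74 after miR-532-5p, 0.88 after miR-532-3p and 0.61 after miR-140-3p, and it was −0.11 after miR-140-5p and 0.18 after miR-199-3p. With bisamide it was −0.05 and 0.15. The 4 arrays with DICER1 above 0.5 are those with HMGA2 above 0.5 on its long-end probe. Of 13626 genes measured on the 5 miRNA arrays of PC3, 786-O and T24, 6 passed 0.5 on at least 4, HMGA2 and DICER1 among them. In PC3 both lay just past 0.5 (HMGA2 0.508, DICER1 0.501). HMGA2 was chosen on these ratios, so nothing is read from this count or from the shared arrays. HIC2, a transcriptional repressor, had 0.75 after miR-532-3p and 0.52 after miR-532-5p. The mean over the HIC2 probes was 0.45 and 0.28, under 0.5 on both arrays.

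The genes at the ends of the wider list differed from array to array. IL6, an inflammatory cytokine, had −1.21 after miR-532-5p, −0.77 after miR-140-5p and −1.28 after miR-140-3p. SLC20A1, a phosphate transporter, had −1.23 after miR-532-3p. CDK6, a G1 kinase, had 1.11 after miR-532-3p and 0.70 after miR-199-3p. MYC had −0.51 after 48 h of bisamide, the only gene of the list below −0.5 there, but 0.32 under median centring, where the median of all genes was 0.44. After 24 h of bisamide the list genes below −0.5 were E2F2 (−0.62), GJC1 (−0.62) and CDC25A (−0.54), of which GJC1 had 0.18 and CDC25A 0.01 under median centring, where the median of all genes was 0.45.

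**Figure D3:**
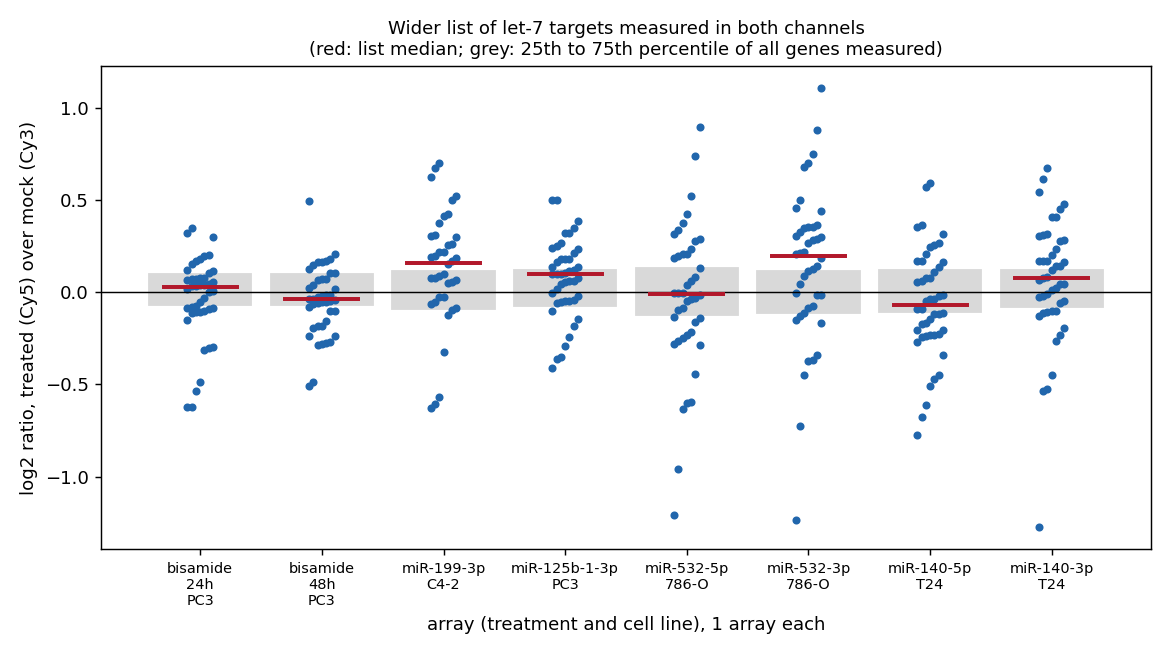
Log2 ratio of treated over mock RNA for each measured gene of the wider let-7 target list (blue points), by array, with the list median in red and the 25th to 75th percentile of all measured genes in grey. The red line runs from −0.07 after miR-140-5p to 0.20 after miR-532-3p. The grey box is the spread of single genes and is no measure of how far a list median varies.

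Factors of let-7 maturation varied less than DICER1. LIN28A, which blocks let-7 maturation as LIN28B does, was not well above background in both channels on any array. ZCCHC11, a uridylyl transferase that marks let-7 precursors, had ratios from −0.17 to 0.15. KHSRP, an RNA-binding protein that promotes let-7 processing, had −0.51 after miR-199-3p, but 0.21 under median centring, where the median of all genes was 0.30. The mean over the KHSRP probes was −0.29 on that array. Among transcripts that host let-7 genes, MIR99AHG had 0.51 after miR-199-3p in C4-2 on its brightest probe, but 0.03 as the mean over its probes. HUWE1 had −0.73 on the same array, and −0.51 as the mean over its probes. MIR100HG had 0.50 after miR-532-5p and 0.37 after miR-125b-1-3p. Mature let-7 was not measured by these probes.

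The measured neighbours of HMGA2 on chromosome 12 had smaller ratios than its long-end probe on the 786-O and T24 arrays, some of the same sign. IRAK3 and WIF1 were not well above background on any array. LEMD3, a nuclear envelope protein, had 0.24 after miR-532-5p and −0.08 after miR-140-3p, and LLPH had −0.28 and −0.50. After miR-532-3p, MSRB3 had −0.67, LEMD3 0.23 and LLPH 0.17. The probe of RPSAP52, a pseudogene antisense to HMGA2, had 0.06 after miR-532-5p and 0.20 after miR-532-3p. In T24 it had −0.33 after miR-140-5p and 0.15 after miR-140-3p. This probe may also read the ribosomal protein gene RPSA and is uncertain.

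By Pearson's correlation across the 7 arrays on which HMGA2 was measured, the genes with ratios most like it among 708 with a span of at least 1.0 were UBE2V1 (r = 0.95), LIPA (0.94), GINM1 (0.92), SMIM3 (0.92) and ANKRD52 (0.91). These arrays share lines and possibly mock RNA, and with 7 points the order is a description. UBE2V1 had −0.99 after miR-140-5p and 0.43 after miR-532-5p, whereas ANKRD52 had 0.97 after miR-532-3p and 0.94 after miR-140-3p.

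The mock RNA gave the level of the members in each line, as the log2 Cy3 signal after normalization between arrays. It compares 1 gene between lines and not 1 gene with another, and lines lay on different arrays of 1 slide. Mocks of 1 line correlated at r = 0.9903 to 0.9992 across probes, and those of different lines at 0.877 to 0.932. C4-2 had its prostate marker KLK3 at 14.4 and PC3 did not have it above background. In T24 the urothelial markers UPK1B, UPK2, UPK3A and GATA3 were not well above background in any mock, and PAX8 and PAX2, markers of kidney, were at 8.85 and 9.34, beside 9.06 and 8.06 in 786-O. What this says of the T24 label was not tested.

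On its long-end probe, HMGA2 was highest in T24 and not well above background in C4-2. The level on this probe was 9.81 and 9.87 in T24, 8.39 to 8.89 in PC3 (mean 8.70 ± 0.27, SD, n = 3), 8.30 and 8.34 in 786-O, and 5.75, not well above background, in C4-2. PC3 and 786-O lay next to each other in this order, and the lowest PC3 value was closer to 786-O than the PC3 SD. This nearness depended on the normalization between arrays. Raw Cy3 was 129 in both 786-O mocks and 388 to 518 in PC3, and other scalings gave a wider gap (last section). T24 was 2.21-fold above PC3 on this probe. C4-2 was lower on it by at least 6.79-fold than PC3, 5.23-fold than 786-O and 15-fold than T24.

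The excess of T24 over PC3 was on the long-end probe alone. On the short-end probe T24 was at 7.70 and PC3 at 8.19, and on the 5′ probe at 6.90 and 7.42, so T24 was below PC3 on both. Against 786-O, T24 was 2.87-fold higher on the long-end probe, 1.43-fold on the short-end probe and 1.03-fold on the 5′ probe. In C4-2 the 5′ probe was well above background at 6.51, the only HMGA2 probe that was. These dim probes are compressed by the offset.

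Among the other members, HMGA1 was highest in PC3 at 12.7 ± 0.52 (SD, n = 3), followed by T24 at 11.1, 786-O at 9.57 and C4-2 at 9.20, and the last 2 differ by less than the PC3 SD. HMGA1 in PC3 was 11.7-fold above C4-2, 9.03-fold above 786-O and 3.04-fold above T24. IGF2BP1 was at 8.25 in T24 and at 5.91 to 5.92, at or near background, in the other lines. IGF2BP2 was at 8.64 in PC3, 8.48 in 786-O and 8.33 in T24 but at 6.13 in C4-2, which was 5.69-fold below PC3. After normalization between arrays, IGF2BP3 was highest in 786-O at 10.6, 2.51-fold above PC3 at 9.30, with T24 at 9.94 and C4-2 at 8.35. Its raw Cy3 signal was 730 to 756 in 786-O, within the 572 to 938 of PC3 and below the 861 to 889 of T24. The place of 786-O thus rests on that normalization. ARID3B varied least among the measured members, from 7.28 in C4-2 to 8.02 in 786-O. LIN28B and CCND2 were not well above background in any mock.

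A member was counted as differing from PC3 when the means lay over 1.0 apart and the mock values did not overlap. In C4-2 3 of 5 members did (HMGA2, HMGA1 and IGF2BP2, all lower), beside 18.6% of all genes tested. In 786-O 2 of 5 did (HMGA1 lower and IGF2BP3 higher), beside 12.6% of all genes. The IGF2BP3 difference was not seen in the raw Cy3 signals, which overlapped. In T24 3 of 6 did (HMGA2 by its long-end probe and IGF2BP1 higher, and HMGA1 lower), beside 10.8% of all genes. Without the mock of the miR-125b-1-3p array the HMGA2 excess in T24 was 0.991, under the limit, and 2 members differed there. The count rests on 1 mock in C4-2 and on 2 in 786-O and T24.

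**Figure D4:**
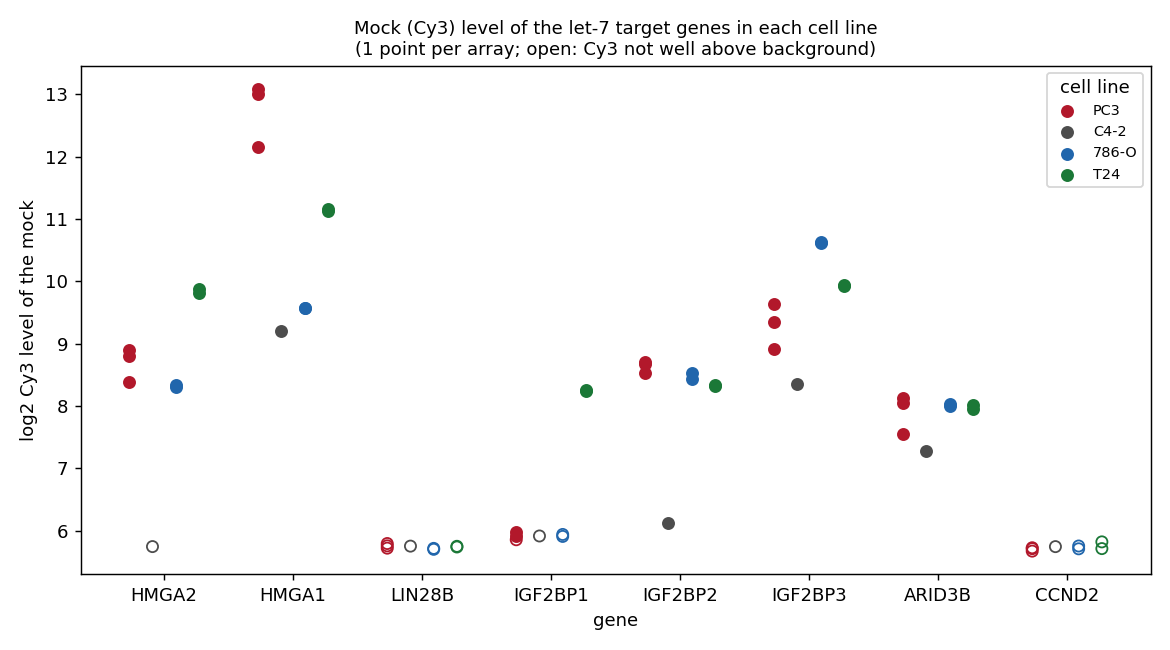
Log2 Cy3 level of the mock for each member by cell line, 1 point per array, open where Cy3 was not well above background. HMGA2 is shown by its long-end probe, which is at 9.81 to 9.87 in T24 and not well above background in C4-2, and IGF2BP1 is at 8.25 in T24 alone.

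The mock level of let-7 host transcripts also differed between lines. MIR100HG, which hosts a let-7 gene beside that of miR-125b-1, was at 8.61 to 9.06 in PC3, 6.79 and 6.82 in 786-O, and not well above background in C4-2 or T24. MIR99AHG, on its brightest probe, was at 9.49 in C4-2 and at 6.43 to 6.85 elsewhere. C4-2 thus had the highest MIR99AHG and the lowest HMGA2 level, and any link was not tested. The genes whose mock level was most like that of HMGA2 over the 8 mocks, among 1909 with a span of at least 2.0, were RGS19, COTL1, PCNA, SLITRK4 and RIPK1 (r = 0.988 to 0.993), a description over 4 lines.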

How the data were processed

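Expression was measured in 8 treated cultures against mock RNA on 8 two-colour arrays of 1 slide, read in 1 scan. Per the file headers, the authors used Agilent Feature Extraction 11.5.1.1, and the deposited intensity values are spot means and local background medians on a linear scale, not normalized. The deposited log10 ratio of Cy5 over Cy3 was made by the same software, and the series table held the same log10 values. From the deposited intensities, log2 ratios were computed with limma 3.58.1 in R 4.3.3 (normexp with an offset of 50, then loess within arrays). Control and outlier spots were left out, and spots of a probe were averaged. A gene was represented by its brightest probe. Mock levels were Cy3 values after Aquantile normalization. Where a channel or line was not well above background, a bound sets the bright mean against the higher of the dim signal and the lowest signal well above background, and dye bias remains possible in it without dye swaps. Precision is limited by the number of arrays.

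Groups came from the treatment in the labels. Counts used a log2 ratio past 0.5, and mock differences a size over 1.0 without overlap. The genes named were the 8 members, up to 3 lowest and 3 highest genes of the wider list per array, let-7 maturation factors, let-7 hosts, neighbours of HMGA2, and the 5 genes most like HMGA2 in ratio and in mock level. The members and lists were chosen with earlier results of these data known. Alternatives were other background corrections, centring, the scanner's ratio, the mean over probes, each gene's median over other arrays, other thresholds, scalings of Cy3, and leaving out PC3 mocks. 1 gene of the wider list counts in its medians and shares but is not reported here by name. The processing was tested on simulated data. Coordinates of probes are GRCh37 and those of miRNAs GRCh38.p14.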

Additional observations from a re-analysis of the deposited data

Results flagged for a closer look

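HMGA2 on the long-end probe was lower with miR-140-5p and higher with miR-140-3p in T24, a difference of −2.50 between the log2 ratios (miR-140-5p minus miR-140-3p). It stood out because the arms went opposite ways in the same line. The difference was not tested, since each arm had 1 array, and the other HMGA2 probes had 0.03 and −0.08 with miR-140-5p.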

How the results depend on the processing

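No paired analysis was possible because no treatment had a second array. Changes between settings were read against the SD of the 3 PC3 mocks (0.27 for HMGA2, 0.08 for the median of the wider list). This SD is a spread between mocks of 1 line. It measures neither the error of a log2 ratio nor the spread in the other lines. Median centring left the median of all genes at −0.03 to 0.45, so its values are to be read against that. Under it HMGA2 was 1.04 and 1.08 with bisamide, 1.13 after miR-125b-1-3p, 1.54 after miR-532-3p, −0.34 after miR-140-5p and 2.33 after miR-140-3p. Members above 0.5 were then 5 for each bisamide array and miR-125b-1-3p, 3 for miR-199-3p and miR-140-5p, 1 for miR-532-5p, 4 for miR-532-3p and 6 for miR-140-3p, and 0 were below −0.5 after miR-140-5p. The median of all genes was itself 0.45, 0.44 and 0.42 on the PC3 arrays (bisamide at 24 and 48 h, then miR-125b-1-3p). The share of all genes is not given for member counts in this section, so nothing is read from them. The wider list medians were 0.52, 0.45, 0.43, 0.56, 0.46, 0.41 and 0.70 in array order (bisamide at 24 and 48 h, the C4-2 array, the miRNA array of PC3, the miR-532-3p array, then the 5p and 3p arms in T24). Less the median of all genes they were 0.06, 0.01, 0.12, 0.15, 0.29, 0.06 and 0.24 in the same order.

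With an offset of 0, plain subtraction and the scanner's ratio (equal to the series table), HMGA2 was 2.54, 2.54 and 2.60 after miR-532-5p and 1.501, 1.51 and 1.55 after miR-532-3p. The list median was 0.26, 0.27 and 0.27 after miR-199-3p, 0.30, 0.31 and 0.33 after miR-532-3p, and −0.19, −0.19 and −0.19 after miR-140-5p. The mean over probes gave HMGA2 0.21 after miR-125b-1-3p, 0.92 after miR-532-5p, 0.64 after miR-532-3p, −0.35 after miR-140-5p and 0.73 after miR-140-3p, and it left 1 member above 0.5 after miR-125b-1-3p and 0 below −0.5 after miR-140-5p. Less the gene's median over the other arrays, HMGA2 was −0.18 and −0.14 with bisamide, 0.14 after miR-125b-1-3p, 1.71, 0.84, −1.52 and 1.12 on the 786-O and T24 arrays. The list median was then −0.0675 at 24 h of bisamide, and members above 0.5 were 0 after miR-125b-1-3p and 1 after miR-532-5p. At a threshold of 1.0, 0 members were above it after miR-125b-1-3p and 1 each for both arms of miR-532 and for miR-140-3p.

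For the mocks, scaling to the 75th percentile gave HMGA2 in 786-O minus PC3 −1.15, and with plain subtraction −0.91 (C4-2 minus PC3 −5.95), and both gave 5 members differing in C4-2. The mean over probes gave −2.10 in C4-2, −0.65 in 786-O and 0.0458 in T24, so the T24 excess over PC3 was lost. At a threshold of 2.0, 1 member each differed in 786-O and T24. Leaving out each PC3 mock in turn gave HMGA2 differences of −3.10 to −2.85 in C4-2, −0.53 to −0.28 in 786-O and 0.99 to 1.24 in T24, with 3 to 4, 2, and 2 to 3 members differing. No member's ratio past 0.5 changed sign. Of 43 such ratios of other listed genes, read under the same settings after the data were seen, 7 changed sign, all under median centring: CDC25A (0.00634) and GJC1 (0.178) at 24 h of bisamide, MYC at 48 h (0.317), KHSRP in C4-2 (0.205), E2F2 (0.00935) and MYC (0.210) after miR-140-5p, and MYC (0.254) after miR-140-3p. Less the median of all genes, 0 of the 7 did. The causes were not tested.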
